A study of Mus musculus with 9 samples.

Results

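Neurons that had chosen Olfr1507 were compared with neurons that had chosen Olfr73 across all genes outside the odorant receptor family, in 6 of the 9 libraries of the series. The genes were those whose symbol does not begin with Olfr, 53883 of the 55291 genes in the table, and 15708 of them had enough counts to be tested. Both groups were mature olfactory sensory neurons of mice, of genotype Olfr1507-IRES-GFP and of genotype Olfr73-IRES-GFP, with 3 libraries each. An IRES lets the transcript of the tagged receptor allele also encode GFP, so fluorescence marks cells that use that allele. Epithelium was taken apart with papain, cells with high GFP and low DAPI were collected by flow cytometry, and polyadenylated RNA was made into libraries with a low-input kit. The remaining 3 libraries, of genotype Olfr160-IRES-mCherry, entered the low-count filter, the scaling and the fit with its shared estimate of the spread. Some genes may thus have been tested only through their counts in Olfr160. The levels of the Olfr160 libraries are quoted where they help to read a value. Sex, age, strain and the number of mice are not given in the sources used here, and neither is whether each library had its own animal. The design text of the series speaks of sequencing in duplicate, whereas 3 libraries a group carry replicate numbers, and how these relate is not stated. All p-values therefore measure only the spread among these libraries, and that spread may be technical.

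Each olfactory sensory neuron transcribes a single odorant receptor allele, and the receptor is tied to the place of the cell in the epithelium and to the place of its axon in the olfactory bulb. Dorsal neurons make detoxifying enzymes and the axon receptor Robo2, whereas ventral neurons make the axon receptor Nrp2 and the adhesion molecule Ncam2. Signalling of the receptor through cyclic AMP sets semaphorin, plexin and neuropilin levels along the anterior-posterior axis, and neuronal activity sets adhesion molecules of the Kirrel and ephrin families that sort axons locally. Olfr73 belongs to a dorsal and Olfr1507 to a ventral set of receptors, so the comparison asks how cells of these identities with the same reporter differ in the rest of their transcriptome.

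Libraries held 20394345 to 36230606 expected counts, and 12197 to 13676 genes with at least 10 counts in Olfr1507 against 14485 to 15060 in Olfr73. The groups were not equally pure by their own receptor. The tagged receptor made up, of the counts of the Olfr family, 94.7%, 85.2% and 91.7% in the 3 Olfr1507 libraries and 22.8%, 23.6% and 32.8% in the 3 Olfr73 libraries. Olfr genes with at least 10 counts numbered 49, 229 and 83 against 527, 470 and 341, so Olfr1507 library 2 stood apart in its group. Markers of other cells were also unequal between the groups. Whether RNA of other cells or of neurons with other receptors contributed to the differences was not tested, and in such bulk samples fewer cells of a type and less RNA per cell cannot be told apart.

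Of the 15708 genes, 5374 (34.2%) passed an edgeR adjusted p of 0.05, with 2377 (15.1%) higher and 2997 (19.1%) lower in Olfr1507. The genes higher in Olfr1507 differed by less than the genes lower there. Their median log2 fold change was 0.73, against -2.70 for the genes lower in Olfr1507. At an absolute log2 fold change of at least 4 there were 111 genes higher and 777 lower. Among all calls, 34 higher genes had 0 counts in Olfr73 and 230 lower genes had 0 counts in Olfr1507. Counts only bound the size of such differences, so these medians and totals partly rest on folds that are not fixed. Adora1, for example, had a log2 fold change of -6.70 but was at least 12.9-fold lower by a floor of 3 counts for the whole group. The 3 libraries of Olfr1507 did not overlap the 3 of Olfr73 for 7610 genes (48.4%), 5107 of them called. The share of calls that were higher in Olfr1507 was 44.2% with TMM scaling, 19.2% with library size alone, 32.8% with TPM (pseudocount 1) and 3.80% with libraries scaled to the olfactory transduction list. The median over all 15708 tested genes outside the Olfr family was -0.11 with TMM, -0.42 when libraries were scaled by size alone and -1.004 when they were scaled to the transduction list. Every later difference is read against the TMM scaling, and every count of a list beside the 15.1% higher and 19.1% lower over all genes. Without Olfr1507 library 1 the counts were 1567 higher and 1949 lower. With the 6 compared libraries alone they were 2331 higher and 2663 lower.

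**Figure D1:**
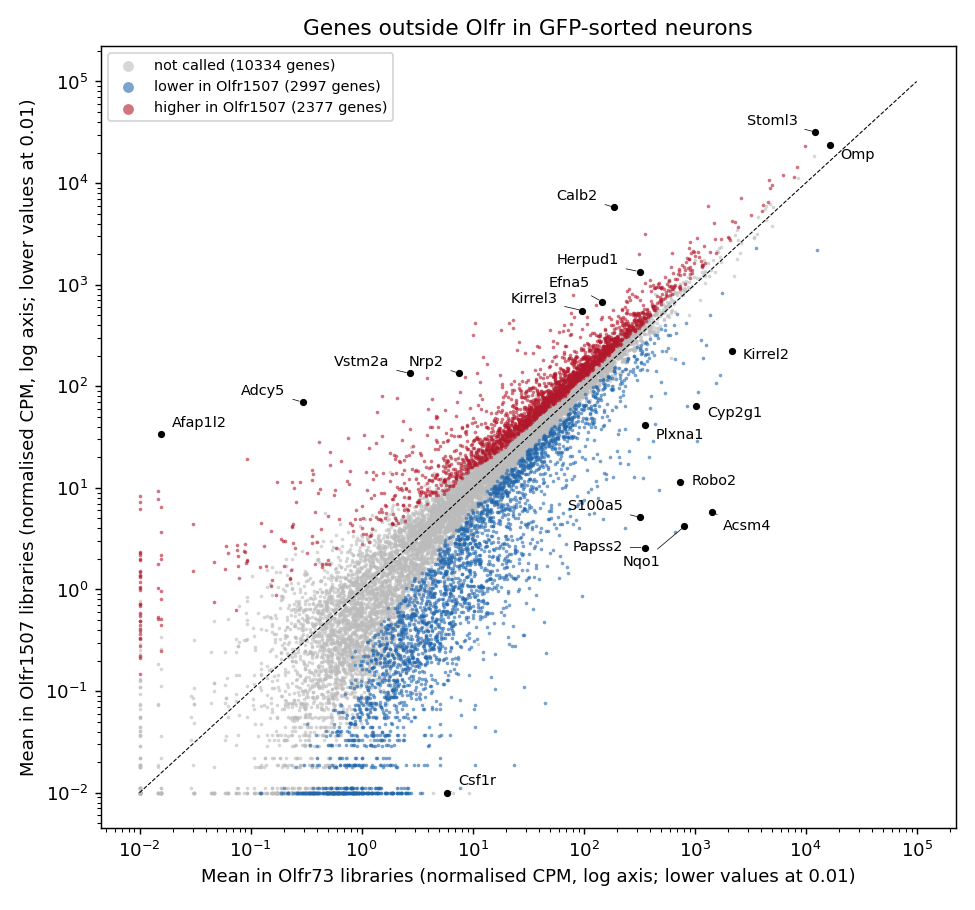
Each point is a tested gene outside Olfr, with its mean level over the 3 Olfr73 libraries on the x axis and over the 3 Olfr1507 libraries on the y axis (normalised CPM, both axes logarithmic, means under 0.01 drawn at 0.01). Called genes are coloured (edgeR adjusted p under 0.05), the dashed line marks equal levels, and labels name genes of the text: Acsm4, Nqo1, Papss2 and Robo2 lie far below the line, Adcy5, Nrp2, Vstm2a and Calb2 far above it.

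The zone genes separated the groups. All 3 called dorsal zone genes were lower in Olfr1507 (3 of 4 tested, median log2 fold change -6.77), and all 5 members of the ventral zone list were higher (median 2.08), beside a median of -0.11 over all tested genes. Both directions stood under the other scalings, although only 4 ventral genes passed with transduction-list scaling. For the steepest dorsal genes and for Nrp2 the RefSeq sequence around the gene start is shown (GRCm38.p6, 250 bases before to 50 after the start, written in the direction of the gene), because these belong to members of the dorsal and ventral lists with large differences between the groups. The windows follow RefSeq starts, which differ from the GENCODE starts printed with the genes for Nrp2 here and for Kirrel2 and Nphs1 further on. Capitals mark matches to 3 motifs searched on both strands. The O/E-like motif, the form bound by the O/E or Ebf factors of these neurons, was CCCNNGGG. The half-site of the nuclear factor I family was spelled TTGGCA. The TATA-like motif was spelled TATAAA. A homeodomain core, spelled TAATTA, was searched too, and no matches overlapped in the windows shown.
Acsm4, chr7:119689776-119690075, plus strand: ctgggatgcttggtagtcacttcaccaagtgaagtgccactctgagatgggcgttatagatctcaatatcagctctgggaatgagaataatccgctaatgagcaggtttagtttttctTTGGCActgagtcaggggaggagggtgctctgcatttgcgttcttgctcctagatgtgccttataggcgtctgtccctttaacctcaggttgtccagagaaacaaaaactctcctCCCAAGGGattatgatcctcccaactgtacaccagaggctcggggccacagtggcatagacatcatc
Nqo1, chr8:107403156-107403455, minus strand: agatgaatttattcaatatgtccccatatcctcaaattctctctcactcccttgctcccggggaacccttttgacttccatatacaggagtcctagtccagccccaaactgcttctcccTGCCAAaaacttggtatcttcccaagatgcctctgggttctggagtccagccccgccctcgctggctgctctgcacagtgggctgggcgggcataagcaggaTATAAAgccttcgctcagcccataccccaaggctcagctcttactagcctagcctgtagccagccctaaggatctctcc
Nrp2, chr1:62703067-62703366, plus strand: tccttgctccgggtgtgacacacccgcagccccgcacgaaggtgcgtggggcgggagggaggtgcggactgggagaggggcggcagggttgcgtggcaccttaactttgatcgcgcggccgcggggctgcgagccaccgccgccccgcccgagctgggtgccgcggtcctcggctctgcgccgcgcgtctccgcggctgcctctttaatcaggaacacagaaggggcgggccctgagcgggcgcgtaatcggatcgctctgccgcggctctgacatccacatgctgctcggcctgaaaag
The Acsm4 window held 1 O/E-like match and 1 nuclear factor I half-site, the Nqo1 window 1 half-site (on its other strand) and 1 TATA-like match, and the Nrp2 window none of the 4. The G and C content was 49.0% for Acsm4, 53.7% for Nqo1 and 70.7% for Nrp2. Of all 32851 RefSeq promoters of this length, 13.7% held the O/E-like motif, 14.1% the half-site, 13.6% the TATA-like motif and 5.29% the homeodomain core. In the same order the shares were 18.7%, 12.98%, 8.78% and 3.01% for the 763 promoters found of genes called higher by a log2 fold change of at least 1. For the 2171 promoters found of genes called lower by as much they were 18.7%, 13.9%, 11.4% and 3.87%. The set of all promoters takes in genes not tested here, so it is not a like group for the promoters of called genes. The matches are a description of letters and not of bound sites.

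Acsm4, an acyl-CoA synthetase of dorsal neurons (chromosome 7, 119690026 to 119714565), stood at 3.13, 9.18 and 4.91 normalised CPM (with the effective library size as denominator) in the Olfr1507 libraries and at 1200.5, 1521 and 1579.7 in the Olfr73 libraries (edgeR log2 fold change -7.93, SE 0.46, adjusted p = 9.71e-06). Nqo1, a quinone reductase and the classical marker of the dorsal zone (chromosome 8, 107388225 to 107403206), stood at 1.73, 7.76 and 3.07 in Olfr1507 and 915, 571 and 946 in Olfr73 (edgeR log2 fold change -7.54, SE 0.61, adjusted p = 6.47e-05). Robo2, the receptor for Slit repellents that guides dorsal axons (chromosome 16, 73891839 to 74411825), stood at 8.85, 17.9 and 7.82 against 693, 789 and 752 (edgeR log2 fold change -5.996, SE 0.396, adjusted p = 2.43e-05). For each of these the lowest Olfr73 library lay far above the highest Olfr1507 library, and Olfr1507 library 2 was the highest of its group each time. In Olfr160, whose mice carry mCherry, the means were 402 ± 126 for Acsm4, 731 ± 315 for Nqo1 and 233 ± 80.7 for Robo2. Sema3f, a repellent made by dorsal axons, was low in both groups, at 0.162, 0.363 and 0.447 in Olfr1507 and 1.101, 0.234 and 0.746 in Olfr73, and did not pass (edgeR log2 fold change -1.08, SE 0.85, adjusted p = 0.346). Msx1, another dorsal gene, did not have enough counts to be tested.

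On the ventral side Nrp2, the semaphorin receptor of ventral axons (chromosome 1, 62703285 to 62818695), stood at 134, 130.3 and 137 in Olfr1507 and 4.49, 12.03 and 6.24 in Olfr73 (edgeR log2 fold change 4.14, SE 0.33, adjusted p = 6.03e-05). Ncam2, the homophilic adhesion molecule long used as a ventral marker (chromosome 16, 81200697 to 81626828), stood at 38.8, 30.9 and 30.6 against 6.08, 9.97 and 3.03 (edgeR log2 fold change 2.39, SE 0.399, adjusted p = 0.00223). The 3 nuclear factor I genes, transcription factors of the ventral epithelium, were higher together. Nfia (chromosome 4, 97772734 to 98118874) stood at 89.4, 76.6 and 71.6 against 18.4, 20.9 and 16.9 (edgeR log2 fold change 2.08, SE 0.17, adjusted p = 6.56e-05). Nfib (chromosome 4, 82290173 to 82705750) stood at 148, 221 and 173 against 40.6, 48.7 and 40.5 (edgeR log2 fold change 2.06, SE 0.18, adjusted p = 0.000101). Nfix (chromosome 8, 84699876 to 84800344) stood at 22.7, 22.9 and 23.2 against 6.605, 12.5 and 9.83 (edgeR log2 fold change 1.25, SE 0.25, adjusted p = 0.00563). The groups overlapped for none of these 5 genes. In Olfr160 the means were 29.3 ± 5.07 for Nrp2, 17.6 ± 5.79 for Ncam2 and 49.5 ± 9.11 for Nfia. Nfib stood there at 112 ± 18.2 and Nfix at 18.9 ± 4.33. Each of these means lay above every Olfr73 library and below every Olfr1507 library. Nfix was the call that ended with transduction-list scaling (adjusted p = 0.380). Per length, in the authors' TPM, the 3 factors stood at 15.3 ± 1.60, 33.5 ± 6.77 and 23.7 ± 0.110 in Olfr1507 and at 5.24 ± 0.567, 11.4 ± 3.05 and 11.5 ± 4.75 in Olfr73 (mean ± SD, n = 3, Nfia, Nfib and Nfix in that order).

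Of the 52 tested transcription factors of olfactory neurons and their zones, 11 were higher and 14 lower, with a median of -0.08 (5 higher and 31 lower with transduction-list scaling, 9 lower without Olfr1507 library 1). Beside the nuclear factor I genes, the higher ones included Meis1 at 69.9, 65.3 and 59.5 in Olfr1507 against 25.1, 28.7 and 16.2 in Olfr73 (edgeR log2 fold change 1.47, SE 0.23, adjusted p = 0.00145), a homeodomain cofactor. Tshz1, a zinc finger factor, stood at 61.3, 57.7 and 55.9 against 19.99, 25.5 and 9.27 (edgeR log2 fold change 1.68, SE 0.31, adjusted p = 0.00385). Id4, an inhibitor of basic helix-loop-helix factors, stood at 58.9, 35.6 and 44.5 against 15.1, 13.7 and 17.5 (edgeR log2 fold change 1.58, SE 0.199, adjusted p = 0.000555). Meis1 and Tshz1 did not pass with transduction-list scaling (adjusted p = 0.137 and 0.0879). The Olfr160 means of Meis1, Tshz1 and Id4 were 66.3 ± 13.9, 44.8 ± 8.92 and 24.4 ± 2.27, above every Olfr73 library. For Meis1 that mean lay within the range of the Olfr1507 libraries. Mef2c, an activity-regulated factor that immune and vessel cells also make, was lower at 1.08, 1.29 and 0.837 against 15.9, 10.1 and 8.25 (edgeR log2 fold change -3.396, SE 0.36, adjusted p = 0.000239). Of 19 receptor choice and enhancer hub genes 2 were higher and 3 lower, beside 15.1% and 19.1% over all genes (median -0.06; transduction-list scaling gave 0 and 15). Lhx2, the homeodomain factor of receptor enhancers, stood at 95.5, 101 and 111 against 58.7, 59.3 and 63.4 (edgeR log2 fold change 0.76, SE 0.15, adjusted p = 0.00504), a direction that turned to -0.14 with transduction-list scaling.

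**Figure D2:**
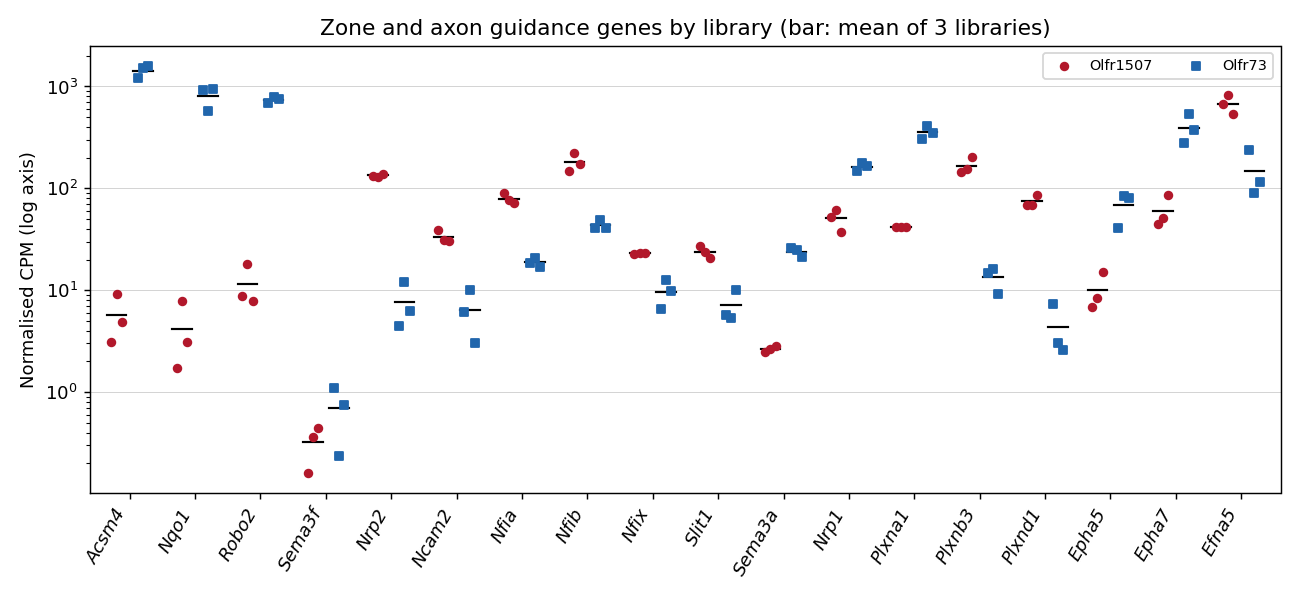
Normalised CPM (logarithmic y axis) in each library for zone and axon guidance genes, with circles for the 3 Olfr1507 libraries, squares for the 3 Olfr73 libraries and a bar at each mean. Acsm4, Nqo1 and Robo2 lie lower in Olfr1507, and Nrp2, Ncam2 and the 3 nuclear factor I genes higher. The groups overlap only for Sema3f, but many of these genes were picked for a low adjusted p or after their values were seen. Of all tested genes 48.4% did not overlap.

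Semaphorins, plexins and neuropilins were called in both directions, and the 3 members named here for the anterior-posterior axis were all lower in Olfr1507. Of the 27 tested, 3 were higher and 8 lower, beside 15.1% and 19.1% over all genes (median -0.67, and 5 higher without Olfr73 library 1). Nrp1, the receptor subunit that marks posterior axons (chromosome 8, 128358604 to 128503363), stood at 52.5, 61.9 and 37.5 in Olfr1507 and 148, 176 and 167 in Olfr73 (edgeR log2 fold change -1.69, SE 0.27, adjusted p = 0.00172). Sema3a, its repellent ligand (chromosome 5, 13125414 to 13602565), stood at 2.48, 2.64 and 2.85 against 26.1, 24.6 and 21.1 (edgeR log2 fold change -3.17, SE 0.21, adjusted p = 2.66e-05). Plxna1 (chromosome 6, 89316314 to 89362620) is the plexin that transmits Sema3a signals, and receptor-driven cyclic AMP sets its level. Plxna1 stood at 41.9, 41.4 and 41.5 against 302, 408 and 353 (edgeR log2 fold change -3.09, SE 0.17, adjusted p = 6.96e-06). Ligand, binding subunit and signalling subunit were thus all lower in Olfr1507, and the 3 Olfr1507 values of Plxna1 lay within 1 CPM of each other. The 3 higher members were Nrp2 (above), Plxnb3 and Plxnd1. Plxnb3, a receptor for class 5 semaphorins, stood at 144, 156 and 201 against 14.8, 16.2 and 9.23 (edgeR log2 fold change 3.64, SE 0.28, adjusted p = 4.49e-05). Plxnd1, a receptor for Sema3e, stood at 68.2, 69.004 and 86.4 against 7.31, 2.997 and 2.61 (edgeR log2 fold change 4.11, SE 0.38, adjusted p = 0.000116). Their Olfr160 means were 33.3 ± 9.55 and 9.94 ± 1.53, and those of Plxna1 and Nrp1 135 ± 24.9 and 115 ± 44.4.

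The Slit and Robo list had 2 of 7 higher and 3 lower (median -0.18). Slit1, a ligand of Robo receptors, was higher in Olfr1507, where its receptor gene Robo2 was lower. Slit1 stood at 27.2, 23.6 and 20.5 in Olfr1507 and 5.77, 5.38 and 10.1 in Olfr73 (edgeR log2 fold change 1.74, SE 0.298, adjusted p = 0.00253). Among netrin, Unc5 and RGM genes 2 of 8 were higher and 1 lower (median 0.06, turning to -0.25 with library size alone). Rgma, a ligand of neogenin, stood at 20.9, 18.4 and 15.4 against 6.52, 1.97 and 2.38 (edgeR log2 fold change 2.33, SE 0.43, adjusted p = 0.00373).

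Ephrins and Eph receptors were called in both directions. Of 18 tested members 3 were higher and 5 lower, beside 15.1% and 19.1% over all genes (median -1.99, and -0.18 with TPM). The ligand Efna5 (chromosome 17, 62604184 to 62881317) stood at 679.5, 820.5 and 533 in Olfr1507 and 237, 90.9 and 115 in Olfr73 (edgeR log2 fold change 2.198, SE 0.39, adjusted p = 0.00285). Its receptor Epha5 (chromosome 5, 84054761 to 84417382) stood at 6.8003, 8.45 and 15.2 against 40.5, 83.8 and 81.04 (edgeR log2 fold change -2.76, SE 0.37, adjusted p = 0.000735). Epha7, another receptor of the same class (chromosome 4, 28813131 to 28967499), stood at 44.7, 51.5 and 85.1 against 279.8, 535 and 371 (edgeR log2 fold change -2.71, SE 0.37, adjusted p = 0.000838). Ligand and receptors lay on opposite sides, with no overlap of the libraries for any of the 3. Olfr73 library 1 was the nearest to Olfr1507 in all 3 genes.

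Kirrel2 and Kirrel3, immunoglobulin adhesion molecules that bind like to like and sort axons of one receptor together, also lay on opposite sides. Kirrel2 (chromosome 7, 30447534 to 30457690) stood at 127, 133 and 403 in Olfr1507 and 1437, 3257 and 1804 in Olfr73 (edgeR log2 fold change -3.29, SE 0.52, adjusted p = 0.0017), with Olfr1507 library 3 well above the other 2 but below every Olfr73 library. Kirrel3 (chromosome 9, 34485894 to 35036716) stood at 585, 577 and 506 against 135, 76.3 and 81.9 (edgeR log2 fold change 2.51, SE 0.29, adjusted p = 0.000356). Nphs1, the related adhesion molecule nephrin, stood at 1.03, 1.32 and 1.56 against 29.1, 101 and 50.3 (edgeR log2 fold change -5.52, SE 0.47, adjusted p = 9.01e-05). Kirrel2 and Nphs1 are neighbours that run away from each other (chromosome 7, 30447534 to 30457690, minus strand, and chromosome 7, 30458315 to 30487223, plus strand), and both were lower, so their RefSeq promoter windows are shown (GRCm38.p6, same length, strands and motifs as above). The Nphs1 window lies inside the GENCODE gene model, downstream of its first base.
Kirrel2, chr7:30457466-30457765, minus strand: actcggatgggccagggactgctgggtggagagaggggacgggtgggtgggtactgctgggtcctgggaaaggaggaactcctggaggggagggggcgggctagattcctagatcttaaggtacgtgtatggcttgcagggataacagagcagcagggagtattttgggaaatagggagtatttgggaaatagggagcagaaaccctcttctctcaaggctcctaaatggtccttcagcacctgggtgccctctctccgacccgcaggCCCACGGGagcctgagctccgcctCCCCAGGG
Nphs1, chr7:30459808-30460107, plus strand: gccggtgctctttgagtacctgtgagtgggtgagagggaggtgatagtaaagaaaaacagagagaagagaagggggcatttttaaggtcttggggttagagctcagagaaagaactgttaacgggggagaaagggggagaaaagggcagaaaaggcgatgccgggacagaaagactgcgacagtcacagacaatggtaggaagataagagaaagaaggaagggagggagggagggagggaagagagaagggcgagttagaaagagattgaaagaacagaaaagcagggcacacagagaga
The Kirrel2 window held 2 O/E-like matches and none of the other 3 motifs, the Nphs1 window none of the 4, and their G and C content was 59.7% and 49.7%.
Of the 4 tested Kirrel and nephrin genes 2 were thus higher and 2 lower, the second higher one being Kirrel (edgeR log2 fold change 1.92, SE 0.44, adjusted p = 0.00925), which did not pass with TPM (adjusted p = 0.118 with a pseudocount of 1). Per length, in the authors' TPM, Kirrel2 stood at 108 ± 75.5 and Kirrel3 at 276 ± 26.1 in Olfr1507, and at 1184 ± 522 and 55.5 ± 22.0 in Olfr73 (mean ± SD, n = 3). By that measure the mean of Kirrel3 was the larger in Olfr1507 and that of Kirrel2 the larger in Olfr73.

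Activity-linked genes were all called, where 34.2% of all tested genes were. Of the 10 members, 7 were lower in Olfr1507 and 3 higher (median -2.52), beside 19.1% and 15.1% over all genes. The counts were the same under library size alone, transduction-list scaling and TPM. Several members are also described with their families, and the list was chosen with earlier results of these data known. The list holds genes that activity raises and genes that it lowers, so its median has no single sense. Kirrel2, Epha5, S100a5, Lrrc3b, Pcp4l1, Pcdh10 and Pcdh17 were the lower ones and Calb2, Kirrel3 and Efna5 the higher ones. S100a5, a calcium-binding protein whose transcript follows odour stimulation (chromosome 3, 90608523 to 90611780), stood at 2.43, 5.35 and 7.59 in Olfr1507 and 139, 457 and 378 in Olfr73 (edgeR log2 fold change -5.98, SE 0.57, adjusted p = 0.00014). Lrrc3b, a leucine-rich repeat membrane protein, stood at 2.54, 5.61 and 3.96 against 134, 355 and 219 (edgeR log2 fold change -5.84, SE 0.52, adjusted p = 0.000106). Pcp4l1, a calmodulin-binding peptide gene, stood at 13.1, 24.2 and 49.2 against 582, 1523 and 1057 (edgeR log2 fold change -5.19, SE 0.65, adjusted p = 0.000534). In all 3 genes Olfr73 library 1 was the lowest of its group and library 2 the highest, and no library overlapped the other group. The Olfr160 means of S100a5, Lrrc3b and Pcp4l1 were 206 ± 58.9, 268 ± 118 and 890.3 ± 457. Pcdh10 (edgeR log2 fold change -1.49, SE 0.36, adjusted p = 0.0116) did not pass without Olfr1507 library 1 (adjusted p = 0.0503).

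Calb2, calretinin, a calcium-binding protein of a subset of these neurons, was the most abundant gene by normalised CPM among the genes higher by a log2 fold change above 4. It lies on chromosome 8, 110137502 to 110168210 and stood at 5944, 6385 and 4984 in Olfr1507 and 239, 160.2 and 167 in Olfr73 (edgeR log2 fold change 4.93, SE 0.198, adjusted p = 1.72e-06). The groups were far apart, and Olfr160 stood near Olfr73 at 313 ± 13.3. Of 20 tested calcium-binding proteins 2 were higher and 9 lower (median -0.80). Necab3, the other higher member, an EF-hand protein of neurons, stood at 105, 84.8 and 73.97 against 11.7, 7.12 and 4.52 (edgeR log2 fold change 3.498, SE 0.33, adjusted p = 0.000127). Calb1, calbindin, was not tested for lack of counts.

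Other adhesion genes followed no single direction. Of 11 tested non-clustered protocadherins 1 was higher and 6 lower, beside 15.1% and 19.1% over all genes (median -2.65, and -0.27 with TPM). Pcdh9 stood at 6.099, 10.9 and 4.63 in Olfr1507 and 95.5, 106 and 80.1 in Olfr73 (edgeR log2 fold change -3.68, SE 0.34, adjusted p = 0.000123). Pcdh7 stood at 9.34, 12.9 and 7.87 against 55.9, 68.1 and 66.7 (edgeR log2 fold change -2.65, SE 0.24, adjusted p = 0.000106), and Pcdh17 at 14.3, 14.4 and 12.2 against 75.3, 50.8 and 73.9 (edgeR log2 fold change -2.29, SE 0.17, adjusted p = 4.04e-05). These 3 are homophilic adhesion molecules with long cytoplasmic tails, and none had overlapping groups. Among 9 classical and type II cadherins 3 were higher and 3 lower (1 lower without Olfr1507 library 1). Cdh4, R-cadherin, was higher at 52.5, 62.01 and 47.96 against 15.01, 14.2 and 14.9 (edgeR log2 fold change 1.88, SE 0.18, adjusted p = 0.000161), and Cdh1, the epithelial cadherin, lower at 4.75, 7.43 and 3.63 against 91.5, 88.1 and 44.7 (edgeR log2 fold change -3.801, SE 0.34, adjusted p = 0.00011), with 338 ± 55.8 in Olfr160. Of 11 teneurins, latrophilins and Flrt genes 4 were higher and 4 lower, and the median of 0.24 turned to -0.08 with library size alone. Flrt3, a ligand of latrophilins and Unc5 receptors, stood at 0.5397, 0.825 and 1.84 against 21.4, 14.8 and 17.5 (edgeR log2 fold change -4.08, SE 0.43, adjusted p = 0.000215). Of 26 immunoglobulin axon adhesion genes 4 were higher and 6 lower, and 2 were higher under the replicate block and without Olfr1507 library 1 or 2 or Olfr73 library 1 or 3. Lsamp, the limbic system adhesion gene, stood at 8.64, 8.91 and 10.9 against 1.06, 0.515 and 0.1398 (edgeR log2 fold change 4.04, SE 0.72, adjusted p = 0.00301).

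**Figure D3:**
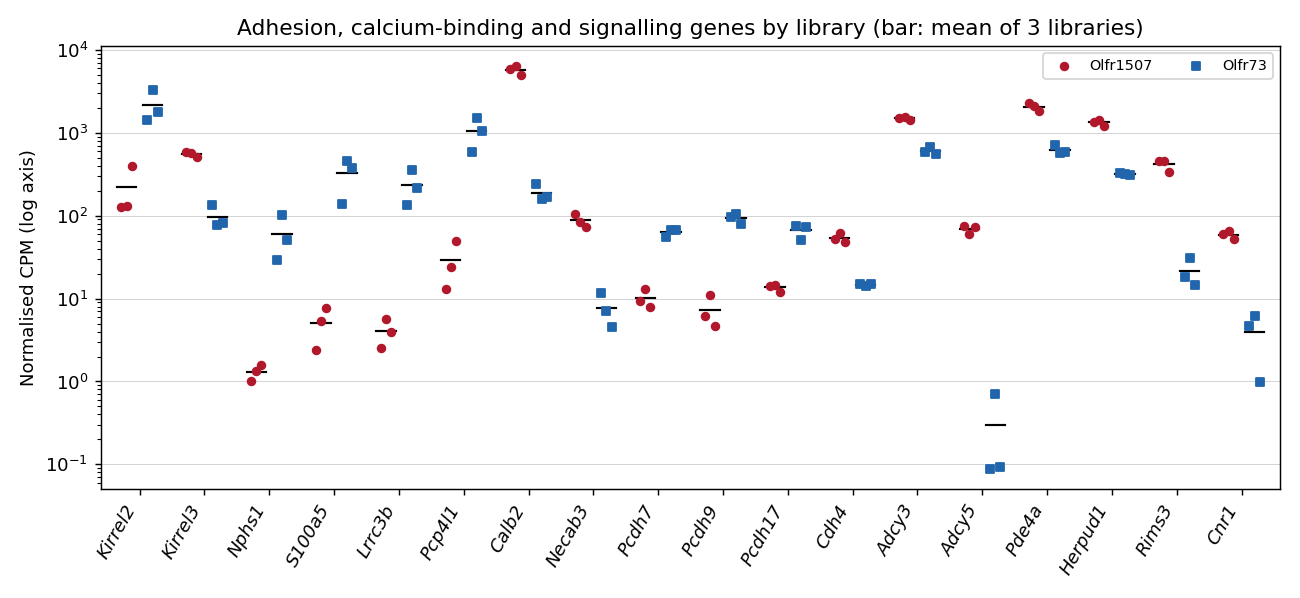
Normalised CPM (logarithmic y axis) in each library for adhesion, calcium-binding and signalling genes, with circles for the 3 Olfr1507 libraries, squares for the 3 Olfr73 libraries and a bar at each mean. Kirrel2, Nphs1, S100a5, Lrrc3b, Pcp4l1 and the 3 protocadherins lie lower in Olfr1507, the other 10 genes higher, and the groups overlap for none of the 18. Many of these genes were picked for no overlap or a low adjusted p, or after their values were seen. Of all tested genes 48.4% did not overlap.

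Of 22 tested genes of the odour transduction cascade 9 were higher and 2 lower in Olfr1507 (median 0.59), beside 15.1% higher and 19.1% lower over all genes, but library size alone gave 8 and 5, and the median turned to -0.30 with transduction-list scaling, which uses these genes. The list took 8.90% to 9.14% of all counts in the Olfr1507 libraries and 5.93% to 6.05% in the Olfr73 libraries. Stoml3, a membrane protein of the cilia, stood at 29641, 34044 and 31758 in Olfr1507 and 11941, 12513 and 12187 in Olfr73 (edgeR log2 fold change 1.38, SE 0.18, adjusted p = 0.000729). Cnga2, the main subunit of the cyclic nucleotide-gated channel, stood at 10261, 11354 and 10779 against 4610.1, 4596 and 4685 (edgeR log2 fold change 1.22, SE 0.18, adjusted p = 0.00107). Ano2, the calcium-activated chloride channel that amplifies the current, stood at 3696, 4166 and 4159 against 1462, 1538 and 1495 (edgeR log2 fold change 1.42, SE 0.22, adjusted p = 0.00139). The 3 genes were higher in every Olfr1507 library than in any Olfr73 library. Omp, the marker of mature neurons, stood at 24903, 22333 and 24591 against 15251, 17506 and 16701 (edgeR log2 fold change 0.54, SE 0.17, adjusted p = 0.0383), did not pass with library size alone (adjusted p = 0.218) or without any single library of Olfr1507 or without Olfr73 library 1 (adjusted p 0.0723 to 0.112), and turned to -0.36 with transduction-list scaling. Gnal, the G protein subunit that couples receptors to the cyclase, did not pass (edgeR log2 fold change 0.65, SE 0.22, adjusted p = 0.0505). It passed with RLE size factors (adjusted p = 0.0489) and turned to -0.25 with transduction-list scaling. Rtp1, the chaperone that carries receptors to the membrane, stood at 2327, 1978 and 1805 against 973, 859 and 936 (edgeR log2 fold change 1.14, SE 0.23, adjusted p = 0.0056), and did not pass with transduction-list scaling (adjusted p = 0.144).

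Of the cyclases Adcy3 and Adcy5, both higher in Olfr1507, Adcy5 showed the larger difference, and it is not in the transduction list. Adcy3, the cyclase of odour transduction, stood at 1489.8, 1555 and 1439.8 in Olfr1507 and 586, 673 and 561 in Olfr73 (edgeR log2 fold change 1.301, SE 0.197, adjusted p = 0.00136). Adcy5, a cyclase better known from striatum and heart (chromosome 16, 35154877 to 35305738), stood at 75.9, 60.6 and 73.1 against 0.0881, 0.702 and 0.0932 (edgeR log2 fold change 7.88, SE 0.59, adjusted p = 3.99e-05). The Olfr73 libraries held only traces of it, and library 2 held most of these. Per length, in the authors' TPM, Adcy3 stood at 535 ± 20.9 and Adcy5 at 14.9 ± 1.93 in Olfr1507 (mean ± SD, n = 3), so Adcy3 remained the more abundant cyclase. In Olfr160 Adcy5 stood at 3.75 ± 1.28 CPM. Pde4a, a phosphodiesterase that degrades cyclic AMP, was higher too, at 2261, 2093 and 1818 against 710.2, 564 and 583 (edgeR log2 fold change 1.73, SE 0.22, adjusted p = 0.00054). Of 31 cyclases, phosphodiesterases and kinase A genes 9 were higher and 6 lower, and the median of 0.02 turned to -0.29 with library size alone (3 lower without Olfr73 library 1). Of 33 RGS and G protein genes 13 were lower and 4 higher, beside 19.1% and 15.1% over all genes (median -0.28). Rgs20, a regulator that speeds the turn-off of G proteins, stood at 6.8003, 6.83 and 5.25 against 44.9, 41.3 and 35.9 (edgeR log2 fold change -2.69, SE 0.21, adjusted p = 4.73e-05). Gucy2c, the guanylyl cyclase receptor of gut guanylin peptides, had 6.37, 4.36 and 8.77 CPM in Olfr1507 against a single count in Olfr73, a ratio of 399.7 (71.3 to 15825) (exact 95% counting interval).

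The calls among cilia and endoplasmic reticulum genes were all higher with TMM, and their direction depended on the scaling. Over all genes 15.1% were higher and 19.1% lower. Of 41 tested intraflagellar transport and BBSome genes, which carry cargo in cilia, 23 were higher and 0 lower (median 0.48), with 10 higher and 2 lower under library size alone and 1 higher and 19 lower (median -0.42) with transduction-list scaling. Without Olfr1507 library 2 or 3 the number higher was 15 and 14. Ttc30b, a peripheral part of the transport complex, stood at 738, 714 and 625 in Olfr1507 and 242, 253 and 234 in Olfr73 (edgeR log2 fold change 1.51, SE 0.15, adjusted p = 0.000167). Of 33 genes for chaperones and degradation in the endoplasmic reticulum 12 were higher and 0 lower (median 0.37), with 7 and 1 under library size alone and 2 and 13 (median -0.53) with transduction-list scaling. Herpud1, a membrane component of that degradation pathway (chromosome 8, 94386438 to 94395377), stood at 1362, 1446 and 1217 against 325, 320.4 and 313 (edgeR log2 fold change 2.07, SE 0.105, adjusted p = 5.41e-06), and it kept its call under every alternative. Hspa5, the main chaperone of the compartment, stood at 1805, 2028 and 2412 against 979.8, 1276 and 949 (edgeR log2 fold change 0.96, SE 0.16, adjusted p = 0.00201), and Dnajb9, its cofactor, at 319.8, 226 and 198 against 97.5, 59.7 and 45.9 (edgeR log2 fold change 1.87, SE 0.34, adjusted p = 0.00311). Hspa5 did not pass with transduction-list scaling (adjusted p = 0.749).

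The PERK arm of the unfolded protein response, which receptor expression engages in young neurons, was less uniform. Of 26 tested members 9 were higher and 5 lower (median 0.35), but library size alone gave 2 and 6, and transduction-list scaling 0 and 13. The number higher was 1 without Olfr1507 library 1, 4 without its library 2 and 3 without Olfr73 library 3, and the number lower was 3 without any single Olfr1507 library. Ddit3, a target of the arm, stood at 63.7, 73.8 and 54.3 in Olfr1507 and 66.05, 49.8 and 69.6 in Olfr73 and did not pass (edgeR log2 fold change 0.05, SE 0.16, adjusted p = 0.825). Scaling to the transduction list moved it to -0.86. Atf5, the factor through which the arm stabilises receptor choice, stood at 50.1, 29.9 and 24.4 against 16.7, 18.9 and 16.03 (edgeR log2 fold change 1.01, SE 0.29, adjusted p = 0.0259). That call did not stand with library size alone (adjusted p = 0.0768), under the replicate block (0.0561), without Olfr1507 library 1 (0.102) or without Olfr73 library 1 or 3 (0.0646 and 0.0632). Phgdh, of serine synthesis, was lower at 0.378, 0.09905 and 0.167 against 9.11, 6.18 and 7.08 (edgeR log2 fold change -5.18, SE 0.47, adjusted p = 0.000112), with 36.5 ± 12.3 in Olfr160. Among 23 heat shock and oxidative stress genes 9 were higher and 3 lower, and the median of 0.14 turned to -0.17 with library size alone (3 higher without Olfr1507 library 1 and 5 without its library 3 or without Olfr73 library 1 or 3). Hmox1, heme oxygenase, stood at 125, 110.1 and 100.4 against 27.9, 16.3 and 26.3 (edgeR log2 fold change 2.25, SE 0.203, adjusted p = 0.00011) and Hspa2, a heat shock protein, at 64.7, 57.02 and 48.2 against 18.4, 10.6 and 10.3 (edgeR log2 fold change 2.11, SE 0.23, adjusted p = 0.000265).

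Among genes of firing and release, the ion channels had more lower calls than higher ones, and the presynaptic calls went both ways, where 44.2% of all calls were higher. Of 35 ion channels of excitability 1 was higher and 15 lower (median -0.82). Scn3b, a sodium channel subunit and among the most abundant genes lower in Olfr1507, stood at 812, 772 and 885 in Olfr1507 and 1355, 2146 and 1819 in Olfr73 (edgeR log2 fold change -1.11, SE 0.23, adjusted p = 0.00627). Scn4b, another such subunit, stood at 25.96, 25.03 and 50.1 against 152, 251 and 212 (edgeR log2 fold change -2.61, SE 0.41, adjusted p = 0.00159). Ano6, a calcium-activated channel and lipid scramblase, stood at 12.9, 18.6 and 15.3 against 73.8, 67.8 and 68.7 (edgeR log2 fold change -2.16, SE 0.14, adjusted p = 2.43e-05). Among 40 presynaptic genes 7 were higher and 12 lower (median -0.25, with 1 and 18 under library size alone). The number higher was 1 to 3 without any single library of Olfr1507 and 3 without Olfr73 library 1 or 3. Rims3, a small active zone protein, was the exception in size, at 453, 463 and 333 against 18.4, 31.2 and 14.5 (edgeR log2 fold change 4.28, SE 0.28, adjusted p = 2.43e-05). Cplx2, complexin, which clamps vesicle fusion, stood at 152, 119.5 and 150.3 against 393, 496 and 453 (edgeR log2 fold change -1.67, SE 0.25, adjusted p = 0.00129), and Unc13b, a vesicle priming factor, at 16.4, 20.3 and 18.5 against 38.2, 34.1 and 52.01 (edgeR log2 fold change -1.17, SE 0.17, adjusted p = 0.00121). Cnr1, the cannabinoid receptor that inhibits release, was higher at 60.1, 65.5 and 51.9 against 4.71, 6.13 and 0.979 (edgeR log2 fold change 3.91, SE 0.53, adjusted p = 0.000776), the only one of 15 neuromodulator and hormone receptors called higher. Gria4, an AMPA receptor subunit, had 8.04, 9.15 and 5.97 CPM in Olfr1507 and a single count in Olfr73, a ratio of 523 (93.5 to 20712) (exact 95% counting interval).

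Immediate early genes respond within minutes to activity or stress. Of 27 tested 11 were lower and 2 higher, beside 19.1% and 15.1% over all genes (median -1.06). Library size alone gave 13 lower and 0 higher. Fos, the best-known member, was 1 of the 2 higher ones, at 1401, 1249.7 and 1804 in Olfr1507 and 923, 764 and 698 in Olfr73 (edgeR log2 fold change 0.901, SE 0.21, adjusted p = 0.0113), and did not pass with library size alone (adjusted p = 0.0782). Arc, a synaptic member, stood at 2.32, 3.103 and 2.12 against 16.996, 11.1 and 7.32 (edgeR log2 fold change -2.22, SE 0.36, adjusted p = 0.0019). Ier3 stood at 1.24, 1.58 and 0.949 against 20.5, 13.7 and 10.3 (edgeR log2 fold change -3.53, SE 0.395, adjusted p = 0.0003) and Dusp6, a phosphatase that ends kinase signals, at 3.45, 4.79 and 5.75 against 30.8, 32.6 and 17.6 (edgeR log2 fold change -2.53, SE 0.27, adjusted p = 0.000255). The Olfr160 means of Arc, Ier3 and Dusp6, 45.4 ± 15.6, 55.6 ± 21.05 and 72.6 ± 9.86, were above both groups. Dusp1, also lower in Olfr1507 (edgeR log2 fold change -1.54, SE 0.15, adjusted p = 0.000178), had means of 24.4 ± 0.435 in Olfr160 and 28.4 ± 3.47 in Olfr73. For Fos the Olfr160 mean was 1963 ± 508. Most lists of markers of other cells followed the order of groups seen for Arc, Ier3 and Dusp6, but Dusp1 and Fos did not. The part of other cells in the immediate early levels was not tested.

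Enzymes that build glycans on axons were split. Of 30 tested 5 were higher and 8 lower, beside 15.1% and 19.1% over all genes (median -1.53). The number higher was 3 without Olfr1507 library 1 or 2, and the number lower 5 without its library 3. The heparan sulfate sulfotransferases Hs3st1 and Hs6st1 were higher. Hs3st1 stood at 136, 113 and 154 in Olfr1507 and 16.5, 10.5 and 5.73 in Olfr73 (edgeR log2 fold change 3.62, SE 0.34, adjusted p = 0.000128), and Hs6st1 at 80.8, 72.5 and 55.3 against 19.2, 19.01 and 18.5 (edgeR log2 fold change 1.88, SE 0.18, adjusted p = 0.000134). St6gal1, a sialyltransferase, was lower at 21.05, 14.8 and 17.9 against 76.7, 98.3 and 77.9 (edgeR log2 fold change -2.24, SE 0.16, adjusted p = 3.2e-05), and the Olfr160 mean of 202 ± 14.1 was above both groups. Papss2, which makes the sulfate donor of such enzymes, was among the largest differences of the whole comparison (chromosome 19, 32595790 to 32667187). It stood at 2.59, 2.31 and 2.85 against 333, 356 and 375 (edgeR log2 fold change -7.11, SE 0.17, adjusted p = 7.62e-08).

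The named genes of largest change included some with no or single counts in 1 group. Unc93a, a membrane protein of the UNC93 family, had 0 counts in all 3 Olfr73 libraries against 8.04, 8.09 and 8.82 CPM, at least 182-fold higher in Olfr1507 by a floor of 3 counts for the whole group. Zfpm2, a cofactor of GATA factors, also had 0 counts there against 5.83, 4.69 and 7.93 CPM, at least 134-fold higher by the same floor. Afap1l2, an actin-filament adaptor, had a single count in Olfr73 against 32.9, 40.05 and 27.7 CPM in Olfr1507, a ratio of 2277 (408 to 89988) (exact 95% counting interval). Il22ra1, a subunit of the interleukin 22 receptor, also had 1 count in Olfr73 against 11.4, 6.87 and 9.55 CPM, a ratio of 579 (104 to 22923). These 4 genes were present in every Olfr1507 library. Vstm2a, a secreted immunoglobulin-domain protein, stood at 114, 153 and 135 against 2.29, 3.75 and 2.14 (edgeR log2 fold change 5.62, SE 0.29, adjusted p = 6.41e-06), Krt80, a keratin, at 111, 80.6 and 48.9 against 1.497, 1.22 and 1.91 (edgeR log2 fold change 5.697, SE 0.37, adjusted p = 2.32e-05), and Rec8, a cohesin subunit of meiosis, at 30.4, 25.6 and 28.5 against 0.308, 0.936 and 0 (edgeR log2 fold change 6.07, SE 0.77, adjusted p = 0.000562). Cemip, a hyaluronan-binding protein, stood at 20.1, 20.9 and 16.7 against 0, 0.281 and 0 (edgeR log2 fold change 7.62, SE 0.89, adjusted p = 0.00037). Its only Olfr73 counts were in library 2.

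On the lower side Col27a1, a fibrillar collagen chain, had a single count in the Olfr1507 group against 12.4, 31.1 and 26.9 CPM in Olfr73, a ratio of 1552 (278 to 61336) in favour of Olfr73 (exact 95% counting interval). Pitpnm3, a membrane-associated lipid transfer protein, likewise had 1 count against 6.47, 6.88 and 9.74 CPM, a ratio of 512 (91.5 to 20271). Rasgrp4, a Ras activator best known from mast cells, stood at 1.403, 5.25 and 4.41 in Olfr1507 and 316, 949 and 715 in Olfr73 (edgeR log2 fold change -7.45, SE 0.59, adjusted p = 5.87e-05), and at 268 ± 70.1 in Olfr160. Ano4, of the anoctamin family, stood at 0, 0.03302 and 0.279 against 3.87, 25.5 and 17.9 (edgeR log2 fold change -7.298, SE 1.08, adjusted p = 0.00123). H2-M10.3, a major histocompatibility gene of the M10 family known from the vomeronasal organ, stood at 0.05397, 0.06603 and 0.0558 against 7.79, 11.003 and 4.99 (edgeR log2 fold change -6.93, SE 0.55, adjusted p = 5.73e-05), and reads shared within that family make its value uncertain. Taar6, a trace amine receptor of dorsal neurons, had 2 counts in Olfr1507 against 2.47, 15.7 and 0.652 CPM in Olfr73, most of it in library 2, and did not pass without Olfr1507 library 2 (adjusted p = 0.0523). Bmp3, a secreted antagonist of BMP signals, stood at 0.108, 0.561 and 0.0558 against 9.69, 17.2 and 10.6 (edgeR log2 fold change -5.53, SE 0.802, adjusted p = 0.00111), with 3.13 ± 1.66 in Olfr160.

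Among abundant transcripts, Gramd1c, a sterol transfer protein, stood at 5789, 6219 and 5714 in Olfr1507 and 1368, 1236 and 1329 in Olfr73 (edgeR log2 fold change 2.17, SE 0.16, adjusted p = 3.89e-05). Nsg1, a protein of neuronal endosomes, stood at 7044, 7329 and 7087 against 2592, 2778 and 2549 (edgeR log2 fold change 1.44, SE 0.16, adjusted p = 0.000264), and Stom, stomatin, at 23814, 22521 and 22705 against 9894, 10512 and 9415 (edgeR log2 fold change 1.21, SE 0.17, adjusted p = 0.00101). Fetub, a secreted protease inhibitor, was lower at 223, 244 and 294 against 1004, 1517 and 1252 (edgeR log2 fold change -2.31, SE 0.18, adjusted p = 6.17e-05). The nuclear long noncoding RNAs Malat1 and Neat1 were lower together. Malat1 stood at 865, 2368 and 3326 against 10435, 14223 and 12960.00 (edgeR log2 fold change -2.52, SE 0.52, adjusted p = 0.00621), and Neat1 at 164, 245 and 451 against 1236, 1103 and 1116 (edgeR log2 fold change -2.01, SE 0.43, adjusted p = 0.00678). Olfr1507 library 1 was the lowest for both and library 3 the highest. Of 12 tested mitochondrially encoded genes 6 were lower and 0 higher. The list took 0.227% to 0.352% of counts in Olfr1507 and 0.822%, 0.355% and 0.859% in the 3 Olfr73 libraries, so library 2 stood with the other group. The count lower was 3 under the replicate block, 10 without Olfr73 library 2, 1 without Olfr1507 library 1 or 3, and 3 without Olfr73 library 1 or 3.

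Most markers of other cells had lower counts in Olfr1507, and several gene lists with members in those cells moved with them. Of 120 tested markers of other cells 76 were lower and 6 higher, beside 19.1% and 15.1% over all genes. These totals include 19 markers of immature neurons, of which 7 were lower and 3 higher. Sustentacular and gland cell markers took 0.0420% to 0.0809% of counts in Olfr1507 and 0.507% to 1.005% in Olfr73 (18 of 24 lower, 0 higher). Respiratory epithelium markers took 0.0140% to 0.0164% against 0.0495% to 0.0883% (10 of 14 lower, 2 higher). Immune cell markers took 0.000437% to 0.000727% against 0.0101% to 0.0148% (14 of 18 lower, 0 higher), and 5 of the 21 in the table were at 0 in all Olfr1507 libraries. Every one of these ranges was apart between the groups. The Olfr160 libraries were higher still, at 3.32% to 6.97% for the sustentacular list. Cyp2g1, a cytochrome of sustentacular cells and glands, stood at 37.7, 98.98 and 53.3 in Olfr1507 and 1227, 1049.9 and 817 in Olfr73 (edgeR log2 fold change -4.02, SE 0.38, adjusted p = 0.000132), with 4343 ± 1076 in Olfr160. Csf1r, the growth factor receptor of macrophages, had 0 counts in Olfr1507 and 5.55, 8.43 and 3.82 CPM in Olfr73, at least 132-fold lower in Olfr1507. The myeloid genes Cybb and Lilr4b, which are in no list, had 1 and 2 counts in Olfr1507 against 6.87, 4.64 and 3.82 and 8.89, 3.51 and 3.31 CPM. Of the basal and progenitor markers 11 of 13 were lower, and of the glia, stroma and vessel markers 12 of 15, with none higher. Fewer calls fell on microvillar and brush cell markers, with 3 lower and 1 higher of 10, and on red blood cell markers, with 1 lower of 7.

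**Figure D4:**
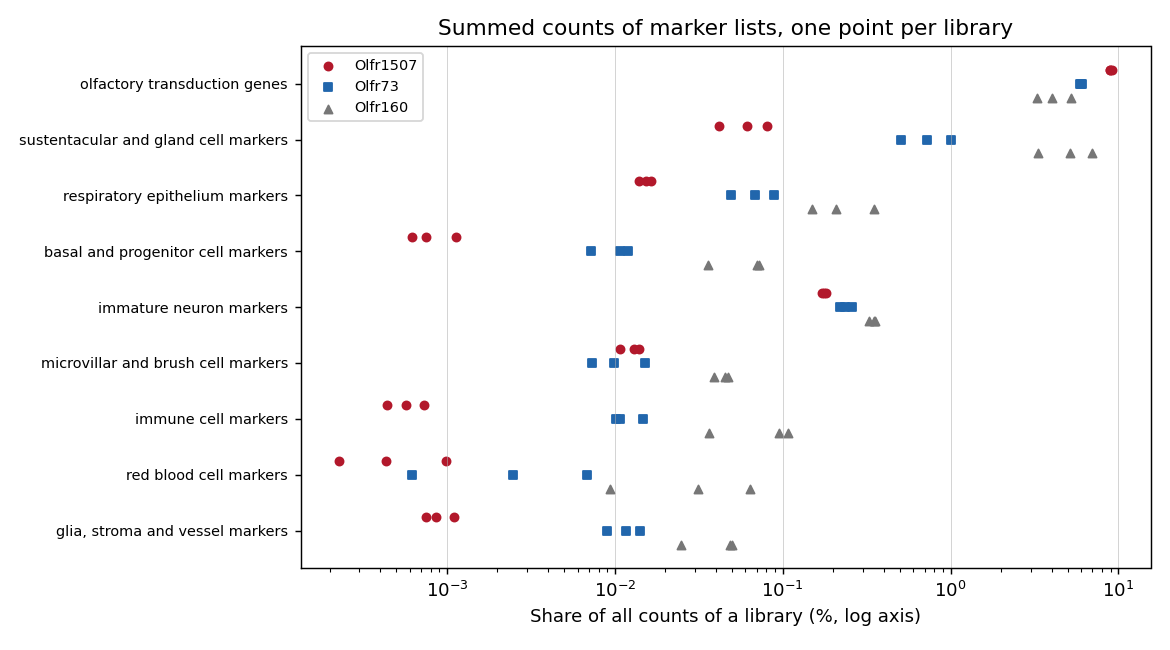
Summed counts of marker lists as a percentage of all counts of a library (logarithmic x axis), with 1 point per library: circles for Olfr1507, squares for Olfr73 and triangles for Olfr160. Except for microvillar and brush cell markers and red blood cell markers, the Olfr1507 and Olfr73 points are apart, with Olfr1507 the lower for all such lists but olfactory transduction.

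Xenobiotic-metabolizing enzymes, which detoxify odorants, were lower for 25 of 37 tested and higher for 3 (median -3.23; 1 higher without Olfr1507 library 1 or 2). The list joins dorsal neuron genes with genes of sustentacular cells and glands. Aox2, an aldehyde oxidase, stood at 12.8, 27.01 and 12.1 in Olfr1507, 270.00, 296 and 181 in Olfr73 and 931 ± 151 in Olfr160 (edgeR log2 fold change -3.83, SE 0.34, adjusted p = 0.00011). The Olfr160 mean of Acsm4, in contrast, was below every Olfr73 library, while that of Nqo1 lay within the range of the Olfr73 libraries, as given above. The comparisons with Olfr160 share libraries with this one, so these means are given side by side with no count. Of 15 retinoic acid genes 7 were lower and 0 higher (median -2.004). Cyp26b1, the enzyme that degrades retinoic acid (chromosome 6, 84571414 to 84593908), stood at 0.162, 0.165 and 0 against 28.7, 31.2 and 26.9 (edgeR log2 fold change -7.87, SE 0.64, adjusted p = 6.85e-05), with 17.2 ± 10.3 in Olfr160. Aldh1a1 and Aldh1a7, enzymes of the aldehyde dehydrogenase family, stood at 0.5397, 0.759 and 0.893 against 16.4, 10.2 and 14.03 (edgeR log2 fold change -4.197, SE 0.37, adjusted p = 9.96e-05) and 1.67, 2.91 and 0.782 against 19.8, 18.4 and 17.1 (edgeR log2 fold change -3.31, SE 0.41, adjusted p = 0.000519). Their Olfr160 means, 57.4 ± 22.5 and 87.5 ± 29.4, were above Olfr73, while that of Cyp26b1 was below it. Of 41 BMP, Wnt, Notch, Hedgehog and Fgf genes 18 were lower and 2 higher (median -2.16, and 11 lower without Olfr1507 library 2 or 3). The part of other cells in these 3 lists was not tested.

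Markers of maturity were called in both directions. Of 19 tested immature neuron markers 3 were higher and 7 lower (median -0.27), with 3 lower without Olfr1507 library 1 or 3, 4 lower without Olfr73 library 1 and 1 higher without Olfr1507 library 3. Their share of counts was 0.171% to 0.181% in Olfr1507 and 0.220% to 0.260% in Olfr73. Gap43, the growth-associated protein of immature neurons, stood at 79.9, 114 and 70.3 against 77.98, 41.2 and 65.5 and did not pass (edgeR log2 fold change 0.52, SE 0.24, adjusted p = 0.119). Tubb3, a neuronal tubulin, stood at 212, 215 and 289 against 574, 584 and 568 (edgeR log2 fold change -1.27, SE 0.15, adjusted p = 0.000427), and Stmn4, a microtubule regulator, at 526, 557 and 412 against 316, 283 and 314 (edgeR log2 fold change 0.71, SE 0.13, adjusted p = 0.00299), with -0.19 under transduction-list scaling. Against these, Omp was present at the level of the most abundant transcripts in all 6 libraries.

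Genes that follow sex or strain, which the labels do not give, were examined next. Of 6 tested sex-chromosome genes 0 were higher and 1 lower, beside 15.1% and 19.1% over all genes. Of 7 tested strain-variable genes 2 were higher and 3 lower (median -0.46). Xist, the RNA of the inactive X chromosome, stood at 14.1, 19.9 and 10.8 in Olfr1507 and 61.5, 89.2 and 169 in Olfr73 (edgeR log2 fold change -2.83, SE 0.46, adjusted p = 0.00201). Eif2s3y, a gene of the Y chromosome, stood at 46.2, 42.9 and 119 against 54.9, 42.9 and 53.5 and did not pass (edgeR log2 fold change 0.46, SE 0.35, adjusted p = 0.334). Both RNAs were thus present in every library. Xist overlaps its antisense gene Tsix, and without a record of strand in the counting their reads cannot be told apart. Glo1, glyoxalase, whose copy number varies between mouse strains, stood at 2002, 2172 and 1893 against 329, 300.2 and 316 (edgeR log2 fold change 2.68, SE 0.13, adjusted p = 3.61e-06), and at 449.7 ± 57.9 in Olfr160. Genes near the tagged loci were counted by distance. Around Olfr1507 (chromosome 14, 52488791 to 52495749, mm10) 6 of 15 tested genes within 1 megabase (Mb) were called (40.0%), 1 higher and 5 lower. The shares called were 38.0% from 1 to 5 Mb, 43.7% from 5 to 10 Mb and 41.7% from 10 to 20 Mb, against 31.9% farther out on that chromosome and 34.2% over all genes. Of the 71 genes from 5 to 10 Mb, 7 were higher and 24 lower (median -0.56). Around Olfr73 (chromosome 2, 88032288 to 88037699) the only tested gene within 1 Mb was not called, and the shares were 33.9% from 1 to 5 Mb, 36.4% from 5 to 10 Mb, 42.2% from 10 to 20 Mb and 33.8% farther out. Whether these shares differ from the rest was not tested.

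**Figure D5:**
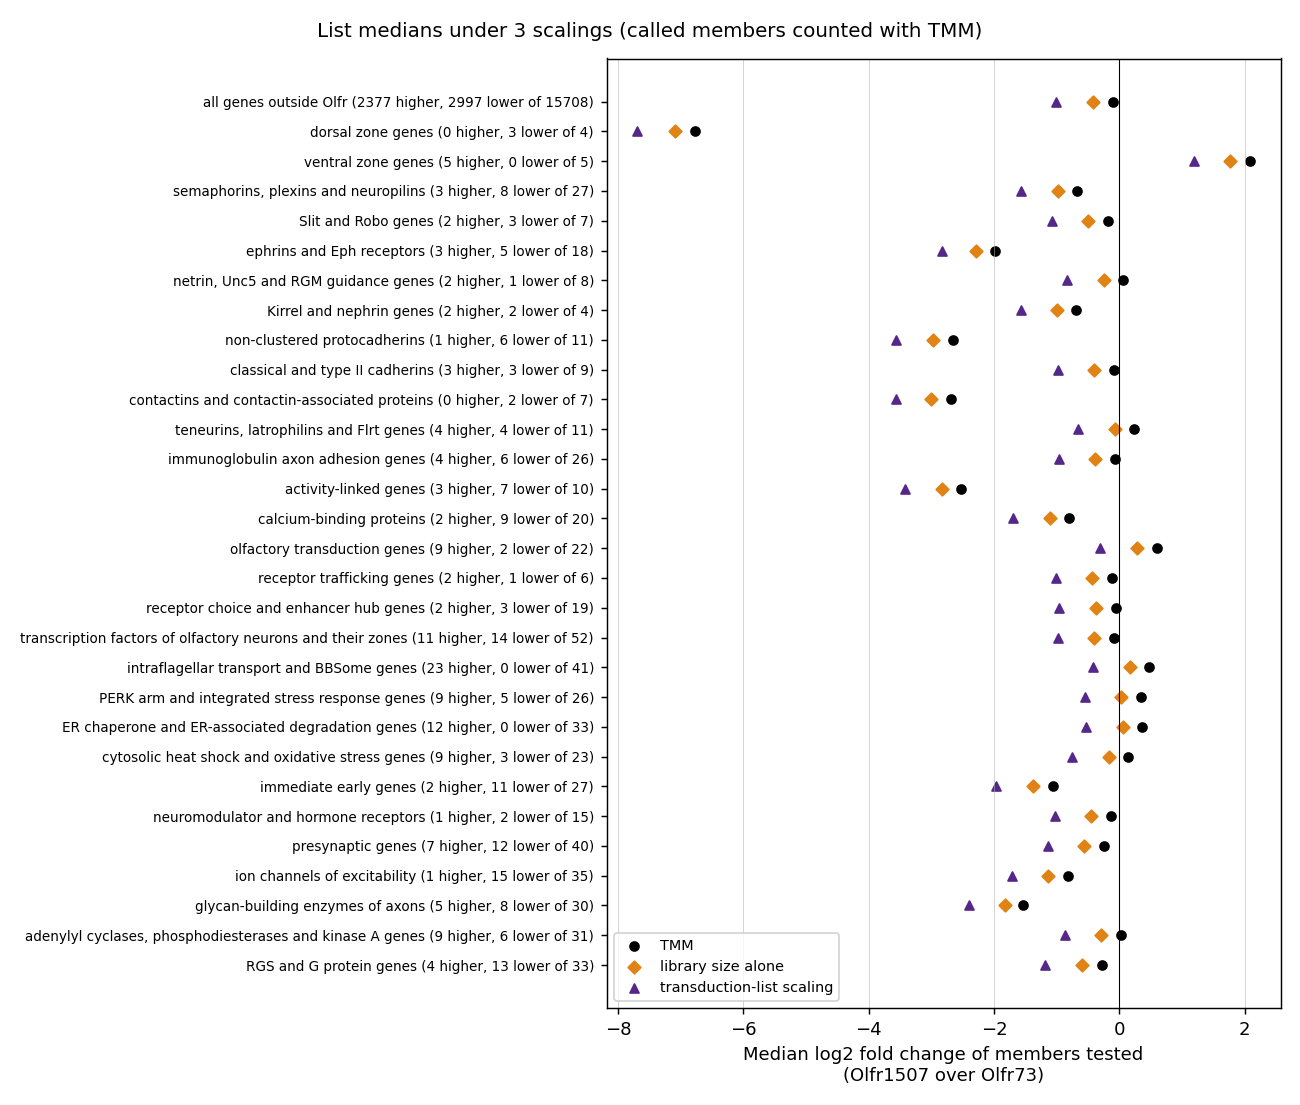
Median log2 fold change (Olfr1507 over Olfr73) of the tested members of each list, with circles for TMM, diamonds for library size alone and triangles for transduction-list scaling; the labels count members called with TMM. The dorsal list lies near -7 and the ventral list above 1 under all 3 scalings, while the cilia and endoplasmic reticulum lists cross 0.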

How the data were processed

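Per the submitters' processing notes, the authors used STAR 2.6.1, RSEM 1.3.1 and DESeq2 (version not given) with mm10; the release of the annotation is not given in the sources used here. Both tables were made by the authors: they deposited RSEM expected counts per gene and a second table of TPM. Columns carry older receptor names, matched through RefSeq synonyms. Expected counts were rounded (4.06% to 5.54% of a library's values were not whole) and entered the test of edgeR 4.0.16 (R 4.3.3): filterByExpr by group, TMM, a robust quasi-likelihood F test, a means model on all 9 libraries, the contrast Olfr1507 minus Olfr73 and Benjamini-Hochberg adjustment over 16399 genes. A gene was called at an adjusted p under 0.05. SE is the log2 fold change divided by the square root of F. Positions come from GENCODE M21, which held 98.7% of the transcript identifiers of the table. Replicate pairs of a group differed beyond sampling noise, so each library counted once. Python 3.11.15, pandas 2.3.3, numpy 2.4.6 and matplotlib 3.10.9 were used.

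The comparison, the 44 gene lists and the alternatives were chosen with earlier results of these data known. Named genes were the 12 largest changes each way with no overlap and a mean of at least 5 CPM, the 6 most abundant each way, per list the 3 members of lowest adjusted p, and a fixed set. Gene models and markers of other cells were left out of the first 2 of these choices. The rule gave 157 genes, and the text names part of them, picked after their values were seen. Plxnd1, Pcp4l1, Pcdh10, Kirrel, Ano2, Fos, Hspa5, Arc, Meis1, Tshz1, Id4, Gnal and Dnajb9 lie outside the rule and were picked the same way. For 0 counts in a group the fold was bounded with a floor of 3 counts per group, and for 1 to 3 counts an exact 95% interval was given; both cover counting error only, since amplified reads are not independent molecules. Reporter sequences were not analysed here. Alternatives were other scalings, filters and thresholds, DESeq2 1.42.0, limma 3.58.1 on log2(TPM + 1) or log2(TPM + 0.1), a replicate block, the 6 libraries alone and each library left out.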

Additional observations from a re-analysis of the deposited data

How the results depend on the processing

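Each setting gave its own total, and the totals do not say how many genes were shared. Higher in Olfr1507 were 2377 genes by the method of the report, 1045 with library size alone, 351 with transduction-list scaling, 1418 and 1472 with TPM (pseudocounts of 1 and 0.1), 1203 at an adjusted p of 0.01 and 779 at a minimum absolute log2 fold change of 1. Lower were 2997 by the method of the report, 8889 with transduction-list scaling and 1527 at an adjusted p of 0.01. Leaving out single libraries gave 1567 to 2223 higher and 1949 to 2901 lower, both lowest without Olfr1507 library 1. With RLE size factors, Olfr genes left out, both other filters, DESeq2 and the 6 libraries alone, both counts stayed within 1.5 times. The share of calls that were higher in Olfr1507 moved from 44.2% to 19.2% with library size alone, 32.8% and 30.8% with TPM and 3.80% with transduction-list scaling. Of the 149 called genes among the 157 of the naming rule, 121 kept call and direction in each of 17 alternatives where they were tested. The other 28 lost it in at least 1. Not every gene was tested in each alternative, and with the 6 libraries alone 151 of the 157 were. Of the 8 not called, 4 passed in at least 1. With transduction-list scaling the log2 fold change turned to -0.32 for Btbd9, -0.86 for Ddit3, -0.10 for Dscam, -0.35 for Hspa8, -0.075 for Ift46, -0.25 for Ift52 and Gnal, -0.14 for Lhx2, -0.36 for Omp, -0.19 for Stmn4 and -0.23 for Tenm4, and with both TPM settings to -0.019 for Tenm4. That scaling sets the transduction genes level by construction; the cause of the other moves was not tested.

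Deviations of same-numbered libraries from their group means correlated at -0.0018, 0.043 and 0.094, and those of differently numbered libraries at -0.097 to 0.063. With 3 libraries a group these values cannot decide whether the replicate numbers pair the libraries. With the replicate number as a block, 2094 genes were higher and 2503 lower. At these depths, 3 counts over a group correspond to 0.0450 CPM in Olfr1507 and 0.0458 in Olfr73, so differences below such levels were not detectable.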
